A study of Mus musculus with 12 samples.

Results

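Trem2, Tyrobp, Mertk, Cd33, Fcgr3, Fcer1g, Cd47 and Sirpa encode receptors, adaptors and a ligand that start or hold back phagocytosis by myeloid cells. The genes were chosen by symbol, and all 8 were found among the 31053 genes listed. They were followed in myeloid cells sorted from the whole brain of 12 male C57BL/6J mice at P90, with 1 library per animal and 3 animals in each of 4 groups. Brains were dissociated by cold Dounce homogenization (DNC) or by warm enzymatic digestion (ENZ), either without inhibitors (NONE) or with actinomycin D, triptolide and anisomycin, which block transcription and translation (INHIB). The labels named no transgene or mutation in any group. All 4 groups shared the removal of the meninges as far as possible, a Percoll spin, a block of Fc receptors with an antibody to CD16 and CD32, which are products of Fcgr3 and Fcgr2b, and a wide sort gate for CD45+ and CD11b+ cells, so cells without those antigens were not sampled.

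Unique molecular identifiers (UMIs), each standing for 1 captured transcript, were counted per gene and cell. The files held 28426 cell barcodes with 33742845 UMIs, and 18826 cells were kept, from 853 to 2185 cells and from 1059783 to 3233159 UMIs per library. Of these, 17902 were microglia-like, 199 were border macrophage-like and 115 were monocyte-like, while 390 formed an interferon-responsive cluster and 75 in mixed, 136 in unresolved and 9 in lymphocyte clusters were left out of the class comparisons. The members and the pathway genes below did not enter the clustering. Mixed clusters held 0.13% to 0.881% and unresolved clusters 0.498% to 1.2% of the kept cells of a group, most in DNC-NONE. All 10 markers of each of the 3 classes were detected in that class, but clusters were named from these markers, so this does not support the names. Counting markers with at least 3 UMIs, border macrophage clusters of 82, 82 and 35 cells held 6, 10 and 8 of 10. Monocyte clusters of 93 and 22 cells held 10 and 5. No border macrophage or monocyte sum held a UMI of the lymphocyte markers. Among kept cells, 236 barcodes occurred in more than 1 library. The library of DNC-NONE replicate 2 had the fewest kept cells and the highest summed level of neutrophil markers, 4053.4 counts per 1000000 UMIs (CPM). In ENZ-NONE replicate 6, a cluster whose top 10 genes included Fos, Egr1 and Ccl4 (the Fos cluster) held 50.6% of the microglia, against 0.682% to 13.2% in the other libraries.

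Microglia and other macrophages take up dying cells, synapses and antibody-coated material through receptors that recognise lipids, lipoproteins, bridging proteins or immunoglobulin. Trem2 and the Fc receptor chain Fcgr3 have no strong signalling motif of their own and pair with the adaptors Tyrobp and Fcer1g, whose immunoreceptor tyrosine-based activation motifs (ITAMs) recruit the kinase Syk. Mertk is a receptor tyrosine kinase that binds the bridging proteins Gas6 and Pros1 on apoptotic cells. Cd33 is a lectin that binds sialic acid and is known in humans as a brake on microglial uptake. Sirpa carries inhibitory motifs that recruit the phosphatases Ptpn6 and Ptpn11, and Cd47 on a neighbouring cell is its ligand, the pair known as a signal against being eaten.

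In the GRCm38 annotation, Trem2 (ENSMUSG00000023992) lies on the plus strand at chr17:48346401-48354147 and Tyrobp (ENSMUSG00000030579) on the plus strand at chr7:30413760-30417585. Fcgr3 (ENSMUSG00000059498) lies on the minus strand at chr1:171051174-171064935, and Fcer1g (ENSMUSG00000058715) on the same strand at chr1:171229572-171234365, 164637 bases away. Mertk (ENSMUSG00000014361) lies on the plus strand at chr2:128698956-128802894 and overlaps an antisense gene, Gm14011, and a small nucleolar RNA gene, Gm23172. Sirpa (ENSMUSG00000037902) follows on the same chromosome and strand at chr2:129592835-129632228. Cd33 (ENSMUSG00000004609) lies on the minus strand at chr7:43524216-43544428 and Cd47 (ENSMUSG00000055447) on the plus strand at chr16:49800533-49915010. None of the 98-base windows in the last 500 bases of their transcripts occurred in a transcript of another gene, so reads of the length sequenced there were not shared with a near-identical copy.

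Start-site windows of 300 bases, from 250 before to 50 after the start, were found in RefSeq (GRCm38.p6) for 6 of the 8 genes. They were searched on both strands for GAGGAA, the core of the motif bound by PU.1, a factor that myeloid cells depend on. The letters were present in the windows of Trem2, Fcgr3 and Cd33 and absent from those of Mertk, Fcer1g and Cd47. Of all 32851 windows 28.3% held them, and of all 27025 genes 31.3% had such a window. The windows of the genes with a match are shown, and that of the adaptor Fcer1g as an example without a match. They were picked with the class levels below known, and a link of the letters to those levels was not tested. Capitals mark the match, which reads TTCCTC where it lies on the other strand.
Trem2, chr17:48346151-48346450, plus strand: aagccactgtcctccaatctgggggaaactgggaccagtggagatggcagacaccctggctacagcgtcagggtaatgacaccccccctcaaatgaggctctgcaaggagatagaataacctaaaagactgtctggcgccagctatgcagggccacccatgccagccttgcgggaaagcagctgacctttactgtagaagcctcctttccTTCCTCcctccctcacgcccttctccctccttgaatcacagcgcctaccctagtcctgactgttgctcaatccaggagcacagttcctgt
Fcgr3, chr1:171059354-171059653, minus strand: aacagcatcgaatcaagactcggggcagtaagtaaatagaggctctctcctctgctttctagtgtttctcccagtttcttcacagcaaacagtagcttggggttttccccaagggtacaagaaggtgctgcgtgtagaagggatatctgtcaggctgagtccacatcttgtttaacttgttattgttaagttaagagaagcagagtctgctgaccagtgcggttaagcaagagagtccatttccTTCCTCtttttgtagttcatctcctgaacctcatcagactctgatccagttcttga
Cd33, chr7:43533122-43533421, minus strand: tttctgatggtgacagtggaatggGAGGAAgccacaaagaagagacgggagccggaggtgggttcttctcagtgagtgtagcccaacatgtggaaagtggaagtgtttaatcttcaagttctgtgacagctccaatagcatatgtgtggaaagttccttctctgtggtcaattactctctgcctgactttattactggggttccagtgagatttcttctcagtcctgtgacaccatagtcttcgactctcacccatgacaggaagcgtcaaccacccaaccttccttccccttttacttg
Fcer1g, chr1:171234300-171234599, minus strand, no match: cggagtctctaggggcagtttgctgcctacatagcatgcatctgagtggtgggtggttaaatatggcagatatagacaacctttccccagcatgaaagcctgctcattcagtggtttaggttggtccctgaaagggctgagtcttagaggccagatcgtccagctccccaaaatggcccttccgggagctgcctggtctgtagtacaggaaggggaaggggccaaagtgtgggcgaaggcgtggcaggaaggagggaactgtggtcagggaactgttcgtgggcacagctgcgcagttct
The match began 40 bases before the start in Trem2, 6 before it in Fcgr3 and 226 before it in Cd33. A match is only a string of letters, and binding was not measured.

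No member passed the test in any comparison of preparations. Levels are given as CPM, the UMIs of a gene per 1000000 UMIs of the kept cells of a library, and as UMIs per cell, and 3' UMI levels of different genes are not compared. Trem2, the lipid and lipoprotein receptor, was at 1932.1, 1798.5 and 2287.3 CPM in the 3 DNC-NONE libraries and at 1916.4, 2068.4 and 2116.2 CPM in DNC-INHIB. In ENZ-NONE it was at 2010.1, 2144.0 and 2137.1 CPM, and in ENZ-INHIB at 2077.7, 2244.1 and 2212.4 CPM. The 4 groups overlapped, and the lowest and highest values were both in DNC-NONE. Group means were 2005.9 ± 252.6 CPM (SD, n = 3) in DNC-NONE, 2033.7 ± 104.4 in DNC-INHIB, 2097.1 ± 75.4 in ENZ-NONE and 2178.1 ± 88.4 in ENZ-INHIB. A cell held 2.6 ± 0.36 Trem2 UMIs on average in DNC-NONE and 3.32 ± 0.42 in ENZ-INHIB, and median depth per cell was also lowest in a DNC-NONE library (1153 UMIs) and highest in an ENZ-INHIB library (1572 UMIs). After thinning each cell to 1000 UMIs, 82.6% ± 3.3 of DNC-NONE cells and 85.3% ± 0.9 of ENZ-INHIB cells held a Trem2 UMI.

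Tyrobp, the adaptor of Trem2, was at 2233.4, 2294.8 and 2665.2 CPM in DNC-NONE and at 2245.0, 2442.4 and 2616.3 CPM in DNC-INHIB. In ENZ-NONE it was at 2465.0, 2405.9 and 2710.8 CPM, and in ENZ-INHIB at 2529.6, 2862.6 and 2861.0 CPM. Again all groups overlapped, with the highest mean in ENZ-INHIB (2751.1 ± 191.8 CPM, SD, n = 3). Trem2 UMIs per Tyrobp UMI were 0.836 ± 0.045 in DNC-NONE, 0.836 ± 0.024 in DNC-INHIB, 0.832 ± 0.053 in ENZ-NONE and 0.793 ± 0.025 in ENZ-INHIB, which lay within the spread of the libraries. In microglia thinned to 1000 UMIs, 73.2% to 81.2% of cells per library held UMIs of both genes and 0.939% to 2.72% held neither.

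**Figure D1:**
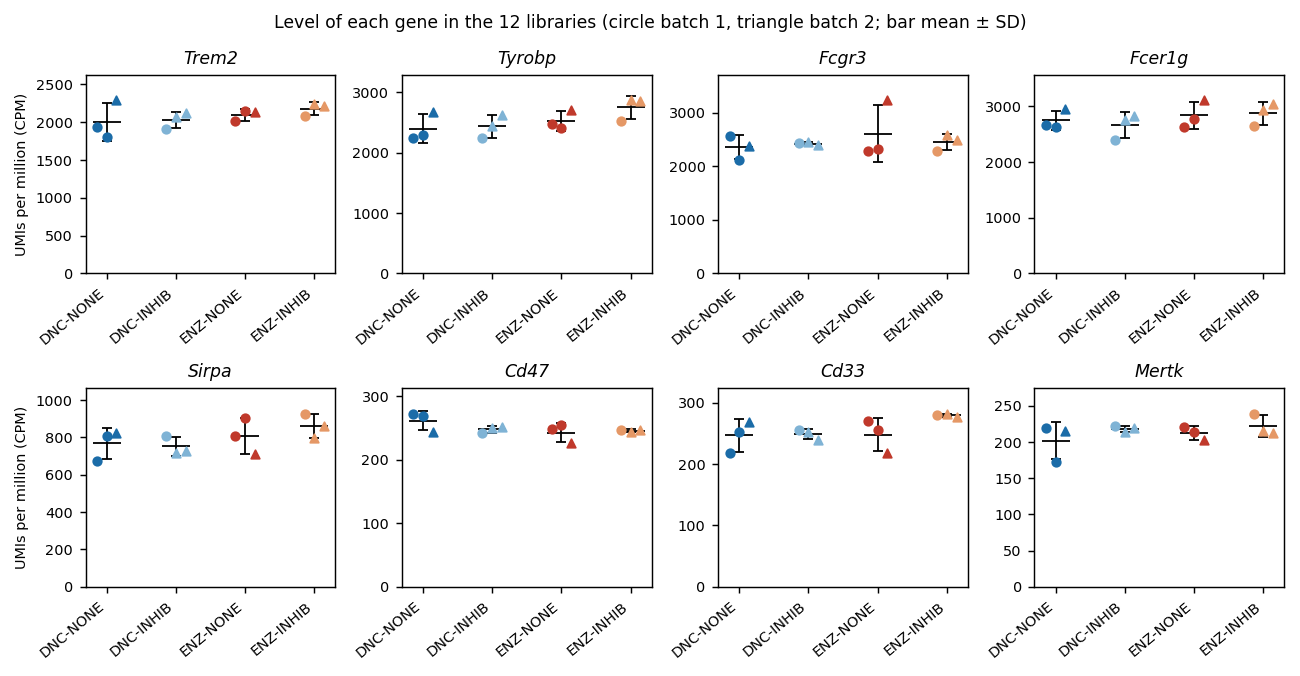
Level of each of the 8 genes in the 12 libraries, in CPM on linear axes that start at 0. Circles are batch 1 and triangles batch 2, and bars are the mean ± SD of 3 libraries. The 4 groups overlap for 7 of the 8 genes. Cd33 in ENZ-INHIB lies above the other groups, and Fcgr3 is highest in 1 ENZ-NONE library at 3224.4 CPM.

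Fcgr3, the low-affinity receptor for immunoglobulin G, was at 2568.8, 2122.1 and 2373.8 CPM in DNC-NONE, at 2422.4, 2452.3 and 2391.8 CPM in DNC-INHIB and at 2279.7, 2572.8 and 2494.6 CPM in ENZ-INHIB. In ENZ-NONE it was at 2279.6, 2312.7 and 3224.4 CPM. The last value, of replicate 6, was above the other 11 libraries, whose range was 2122.1 to 2572.8 CPM, and it gave Fcgr3 the widest spread of the 8 genes, a coefficient of variation of 11.1% over 12 libraries. The median over the 5704 genes that averaged at least 50 UMIs was 11.7%. The log2 difference of ENZ-NONE from DNC-NONE was 0.19 (SE 0.122, edgeR quasi-likelihood test, adjusted p = 0.742), and without replicate 6 it was -0.01. The interaction of Fcgr3 likewise went from 0.17 to -0.04. Fcer1g, the adaptor that carries the signal of Fcgr3, was at 2634.9, 2780.4 and 3105.0 CPM in ENZ-NONE and between 2389.6 and 3039.5 CPM elsewhere, and here too replicate 6 was the highest library.

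The Fos cluster was compared with the other microglia of the same library, as a description, because that cluster was defined on these cells. In ENZ-NONE replicate 6, Fcgr3 was at 3638.1 CPM in the 835 cells of the Fos cluster and at 3020.6 CPM in the other 816 microglia. The level outside the cluster was the highest of the 12 libraries, whose other microglia had a median of 2461.0 CPM. The median inside it was 2735.7 CPM, and Fcgr3 was higher inside than outside in 10 of 12 animals, though 6 of the 12 had fewer than 30 cells in the cluster. Trem2, Tyrobp, Mertk and Cd33 were each higher inside in 4 of 12 animals and Cd47 in 2. The part of this cluster in the Fcgr3 level of ENZ-NONE was not tested.

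Cd33, the sialic acid-binding lectin, was the only member with groups that did not overlap. Its 3 ENZ-INHIB libraries were at 279.6, 281.9 and 276.7 CPM. DNC-NONE was at 217.3, 252.9 and 269.2 CPM, DNC-INHIB at 255.4, 252.4 and 239.1 CPM, and ENZ-NONE at 270.4, 254.7 and 218.3 CPM. Cd33 was thus higher in ENZ-INHIB than in every library of the other 3 groups, by a small margin. Over the 5704 genes that averaged at least 50 UMIs, the libraries of ENZ-INHIB did not overlap those of DNC-NONE for 15.1%, those of DNC-INHIB for 16.7% and those of ENZ-NONE for 11.3%. The log2 differences were 0.19 (SE 0.097) from DNC-NONE, 0.18 (SE 0.095) from DNC-INHIB and -0.14 (SE 0.096) for ENZ-NONE against ENZ-INHIB, with edgeR adjusted p of 0.488, 0.655 and 0.965. After thinning, 23.9% ± 0.17 of ENZ-INHIB cells and 21.0% ± 1.7 to 21.6% ± 0.5 of the cells of the other groups held a Cd33 UMI.

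Sirpa, the receptor of Cd47, was at 672.7, 808.7 and 822.5 CPM in DNC-NONE, at 809.1, 717.6 and 729.0 CPM in DNC-INHIB, at 808.5, 902.0 and 713.6 CPM in ENZ-NONE and at 927.1, 797.9 and 859.9 CPM in ENZ-INHIB. Its groups overlapped. Cd47 varied least, between 225.7 and 272.1 CPM, a coefficient of variation of 4.87%. Mertk ranged from 172.7 CPM in DNC-NONE replicate 2 to 239.2 CPM in ENZ-INHIB replicate 1. Sirpa UMIs per Cd47 UMI averaged 2.96 ± 0.46 in DNC-NONE, 3.04 ± 0.27 in DNC-INHIB, 3.32 ± 0.2 in ENZ-NONE and 3.51 ± 0.23 in ENZ-INHIB, and the libraries of these groups overlapped as well.

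Each pair of preparations was compared by an edgeR quasi-likelihood fit over 9882 genes of the 12 library sums, in which a gene was called at an adjusted p under 0.05 over all genes. In ENZ-NONE against DNC-NONE, the comparison of digestion with Dounce without inhibitors, 0 of 8 members and 0.648% of all genes were called. In ENZ-INHIB against DNC-INHIB, the same comparison with inhibitors, it was 0 of 8 and 0.152%. For the inhibitors, it was 0 of 8 and 0% in DNC-NONE against DNC-INHIB, where 466 genes were under an unadjusted 0.05, and 0 of 8 and 0.425% in ENZ-NONE against ENZ-INHIB. Across method and inhibitors, it was 0 of 8 and 0.88% in ENZ-NONE against DNC-INHIB, and 0 of 8 and 0.101% in ENZ-INHIB against DNC-NONE. The change of the digestion effect with the inhibitors, an interaction, was called for 0 of 8 members and 0.172% of genes. DESeq2 also called 0 members in each of the 7 comparisons, and leaving out any single library gave 0 in each. These comparisons share libraries, so they are not separate lines of evidence.

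Over the 6 pairwise comparisons the members' log2 differences lay between -0.14 and 0.21, and the 95% intervals between -0.34 and 0.45, so a difference of more than 1.37-fold lay outside each of them. Of 56 member tests, 2 had an unadjusted p under 0.05. Sirpa was 0.20 higher on the log2 scale in ENZ-INHIB than in DNC-INHIB (SE 0.095, edgeR adjusted p = 0.59), and Tyrobp was 0.21 higher in ENZ-INHIB than in DNC-NONE (SE 0.098, adjusted p = 0.467). The median difference of the members was 0.11 in ENZ-NONE against DNC-NONE and 0.11 in ENZ-INHIB against DNC-INHIB, where the median of all genes was 0.00.

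**Figure D2:**
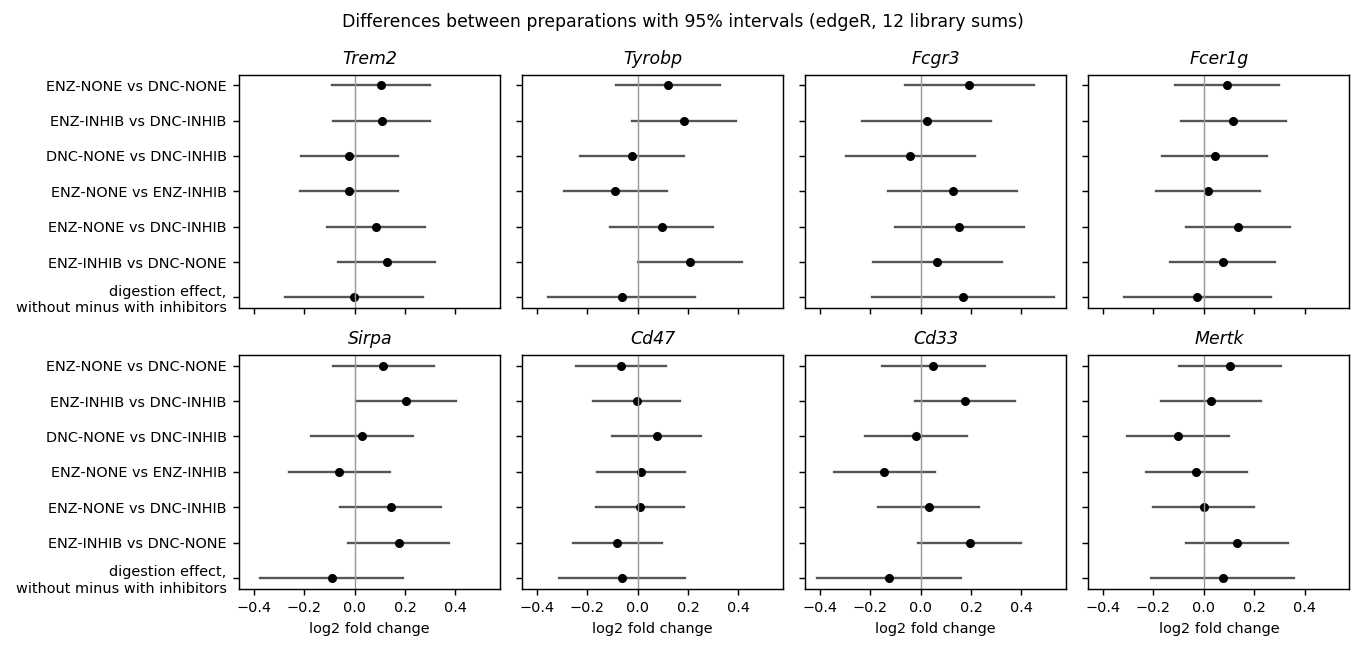
Differences between preparations for the 8 genes on the log2 scale, with 95% intervals, from the edgeR fit of 12 library sums. Points are estimates and the grey vertical line is no difference. All points lie between -0.14 and 0.21, and the interval bounds stay within -0.41 and 0.53, the interaction in the lowest line of each panel included.

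The libraries came from 2 batches of 6 animals, each with libraries of all 4 groups but not in equal numbers. Batch 1 held 2 libraries of each NONE group and 1 of each INHIB group, and batch 2 the reverse. Inhibitors and batch were thus partly confounded. Tyrobp, Fcer1g and Trem2 had higher means in batch 2 than in batch 1 within each of the 4 groups. Tyrobp averaged 2362.3 ± 122.8 CPM in batch 1 and 2693.0 ± 159.2 in batch 2 (SD, n = 6), Fcer1g 2623.0 ± 127.5 and 2936.5 ± 126.9, and Trem2 1979.8 ± 123.8 and 2177.6 ± 83.7. Within batch 1, Tyrobp averaged 2435.4 CPM in 2 ENZ-NONE and 2264.1 CPM in 2 DNC-NONE libraries, and within batch 2 it was at 2710.8 and 2665.2 CPM in 1 library of each. Fcgr3 averaged 2296.1 CPM in ENZ-NONE and 2345.4 CPM in DNC-NONE within batch 1, and was at 3224.4 and 2373.8 CPM within batch 2, so its difference did not hold in both. With batch as a covariate, 1 member passed in 1 comparison, Fcer1g in ENZ-NONE against DNC-INHIB (log2 difference 0.21, edgeR adjusted p = 0.0495). In that comparison 130 of 9882 genes were called with the covariate and 87 without it. The Tyrobp difference of ENZ-INHIB from DNC-NONE was 0.13 with the covariate and 0.21 without it. The Sirpa difference of ENZ-INHIB from DNC-INHIB was 0.20 in both fits.

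Levels of some of the 8 genes differed widely between cell classes, while Tyrobp and Fcer1g differed less. Almost all UMIs of the 8 genes came from microglia, from 90.4% of those of Cd47 to 97.4% of those of Mertk, so the library levels above are close to microglial levels. In the library sums, a smaller share of cells of a class and less RNA per cell cannot be told apart. UMIs were therefore summed per animal and class, keeping sums of at least 5 cells, which gave 12 microglia, 12 border macrophage and 8 monocyte sums with the animal as a block. Median depth per cell was 1334 UMIs in microglia, 1418 in border macrophages and 1925 in monocytes.

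Trem2 fell in steps from microglia to border macrophages to monocytes. It was at 1925.3 to 2384.7 CPM (median 2157.9) in microglia, at 370.7 to 676.2 CPM (median 579.6) in border macrophages and at 0 to 290.6 CPM (median 126.6) in monocytes. The 3 ranges did not overlap, and the order was the same in every animal with the classes and in both batches. Border macrophages were 3.83-fold lower than microglia (log2 -1.94, SE 0.109, edgeR adjusted p = 2.26e-18), monocytes were 20.6-fold lower than microglia (log2 -4.36, SE 0.177, adjusted p = 4.01e-23), and monocytes were 5.37-fold lower than border macrophages (log2 -2.43, SE 0.232, adjusted p = 1.58e-11). Under the other scalings of the sums given below, the log2 difference of monocytes from microglia was -4.70 and -3.93. The sum of ENZ-INHIB replicate 2, of 6 monocytes, held no Trem2 UMI, which allows up to 275 CPM. In cells thinned to 1000 UMIs, 86.0% of microglia, 40.2% of border macrophages and 12.2% of monocytes held a Trem2 UMI (91.9%, 52.8% and 20.9% unthinned).

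UMIs of microglial genes were also present in the other classes, and these can come from RNA outside the cell. The 10 microglia markers summed to a median of 39093.7 CPM in microglia (35660.5 to 40636.0), 5140.3 CPM in border macrophages (4200.9 to 5790.0) and 844.3 CPM in monocytes (499.9 to 3393.6), and none of the 10 was at 0 in any class. Per UMI of those markers there were 0.0557 Trem2 UMIs in microglia, 0.108 in border macrophages and 0.11 in monocytes, from 33 Trem2 and 301 marker UMIs in the last. For Mertk, the engulfment receptor, the 1 UMI in monocytes gave 0.00332 per marker UMI, against 0.00575 in microglia. How much of the Trem2 or Mertk level in either class was free RNA was not tested.

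Tyrobp differed less between classes than its receptor. It was at 2211.2 to 2875.4 CPM (median 2493.8) in microglia, 1668.0 to 3362.1 CPM (median 2500.2) in border macrophages and 2653.6 to 4363.2 CPM (median 3947.8) in monocytes. Microglia and border macrophages overlapped fully, and monocytes were the higher class in 8 of 8 animals by CPM. With the scaling of the fit, the trimmed mean of M values (TMM), neither difference passed (log2 0.00, SE 0.083, and 0.09, SE 0.096, edgeR adjusted p = 0.972 and 0.356), but border macrophages were called lower, at -0.34 with median-of-ratios size factors (adjusted p = 0.000183), -0.19 with library totals (adjusted p = 0.0406), -0.35 with DESeq2 (adjusted p = 1.95e-06) and -0.55 without the low-count filter (adjusted p = 1.19e-05). The sign for monocytes flipped with the scaling, from -0.20 with median-of-ratios size factors to 0.53 with library totals.

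The Fc receptor and its adaptor parted in a like way. Fcgr3 was at 2232.3 to 3338.7 CPM (median 2465.8) in microglia, 572.8 to 2095.4 CPM (median 1515.0) in border macrophages and 363.5 to 1146.0 CPM (median 702.7) in monocytes. Microglia lay above both other classes without overlap, while border macrophages and monocytes overlapped. Border macrophages were 1.69-fold lower than microglia (log2 -0.76, SE 0.104, edgeR adjusted p = 4.22e-08), monocytes 5.53-fold lower than microglia (log2 -2.47, SE 0.149, adjusted p = 1.11e-17) and 3.27-fold lower than border macrophages (log2 -1.71, SE 0.165, adjusted p = 2.19e-11). Fcer1g was at 2390.6 to 3078.6 CPM (median 2750.6) in microglia, 2532.9 to 4303.1 CPM (median 3636.2) in border macrophages and 3499.0 to 5705.2 CPM (median 4588.2) in monocytes. It was higher in border macrophages than in microglia in 12 of 12 animals by CPM, and this passed with TMM (log2 0.39, SE 0.085, adjusted p = 0.000116) but not with median-of-ratios size factors (0.05) and turned to -0.16 without a filter on low counts. Its difference of monocytes from border macrophages, -0.22 with TMM (adjusted p = 0.0736), was 0.41 with library totals.

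Sirpa and Cd47, receptor and ligand, moved in opposite directions from microglia to monocytes. Sirpa was at 697.2 to 938.7 CPM (median 824.1) in microglia, 119.6 to 476.8 CPM (median 317.0) in border macrophages and 131.7 to 550.1 CPM (median 319.8) in monocytes. Microglia lay above the other 2 classes without overlap, and those 2 overlapped. It was 2.61-fold lower in border macrophages (log2 -1.38, SE 0.15, edgeR adjusted p = 2.08e-10) and 4.23-fold lower in monocytes (log2 -2.08, SE 0.193, adjusted p = 2.21e-12) than in microglia. Monocytes differed from border macrophages by -0.70 (SE 0.26, adjusted p = 0.0206) with TMM and by -0.07 (adjusted p = 0.817) with library totals, and by -0.16 (adjusted p = 0.619) without DNC-NONE replicate 1. That call was also lost on leaving out DNC-NONE replicate 2, DNC-INHIB replicate 4 or 6, ENZ-NONE replicate 6 or ENZ-INHIB replicate 3. Cd47 was at 215.6 to 255.3 CPM (median 239.6) in microglia, 107.4 to 380.0 CPM (median 270.8) in border macrophages and 366.7 to 968.8 CPM (median 731.4) in monocytes. Cd47 passed the filter of the fit, at least 269 CPM in at least 8 sums, only through monocytes, the class where it is high, so a difference was to be found there. In that fit monocytes were 2.1-fold higher than microglia (log2 1.07, SE 0.158, adjusted p = 1.37e-07) and 1.89-fold higher than border macrophages (log2 0.92, SE 0.205, adjusted p = 0.000222). Without the filter these differences were 0.98 (adjusted p = 4.56e-05) and 1.35 (adjusted p = 2.19e-05). Microglia and border macrophages overlapped in Cd47 (log2 0.15, SE 0.167, adjusted p = 0.426), with a negative sign under both other scalings.

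Mertk and Cd33 did not pass the filter of the class fit, at least 269 CPM in at least 8 sums. Mertk reached that level in 0 sums of any class, microglia included. Cd33 reached it in 5 microglia, 1 border macrophage and 0 monocyte sums. Mertk was at 183.6 to 245.8 CPM (median 222.8) in microglia and at 0 to 126.7 CPM (median 28.6) in border macrophages, whose 199 cells held 15 UMIs. The 115 monocytes held 1 Mertk UMI, a ratio to the microglial level of 0.0206 with a 95% counting interval of 0.000522 to 0.115. It was at 0 in 5 of 12 border macrophage sums and 7 of 8 monocyte sums, which allows from 43.9 to 439 CPM by sum. Mertk lay below the microglia of the same animal in 12 of 12 border macrophage and 8 of 8 monocyte sums. Cd33 was at 223.5 to 286.4 CPM (median 264.4) in microglia, 0 to 318.2 CPM (median 152.8) in border macrophages and 0 to 183.4 CPM (median 24.2) in monocytes, lower than microglia in 10 of 12 and 8 of 8 animals. Fitted without the filter, which also changes the TMM scaling, border macrophages differed from microglia by -2.64 (SE 0.331) for Mertk and by -1.12 (SE 0.237) for Cd33 on the log2 scale, with edgeR adjusted p of 1e-13 and 4.21e-05, in a fit that called 22.4% of all genes. Monocytes differed from microglia by -5.95 (SE 0.688, adjusted p = 2.56e-16) for Mertk and by -2.58 (SE 0.385, adjusted p = 5.37e-10) for Cd33, where 22.2% were called, and monocytes and border macrophages did not differ past the threshold (adjusted p = 0.0771 and 0.0546). With library totals in place of TMM, and no filter, border macrophages differed from microglia by -0.63 for Cd33 (edgeR adjusted p = 0.0508) and by -2.17 for Mertk (adjusted p = 2.79e-09). Monocytes then differed from microglia by -2.05 for Cd33 (adjusted p = 2.1e-06) and by -5.47 for Mertk (adjusted p = 7.93e-13).

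**Figure D3:**
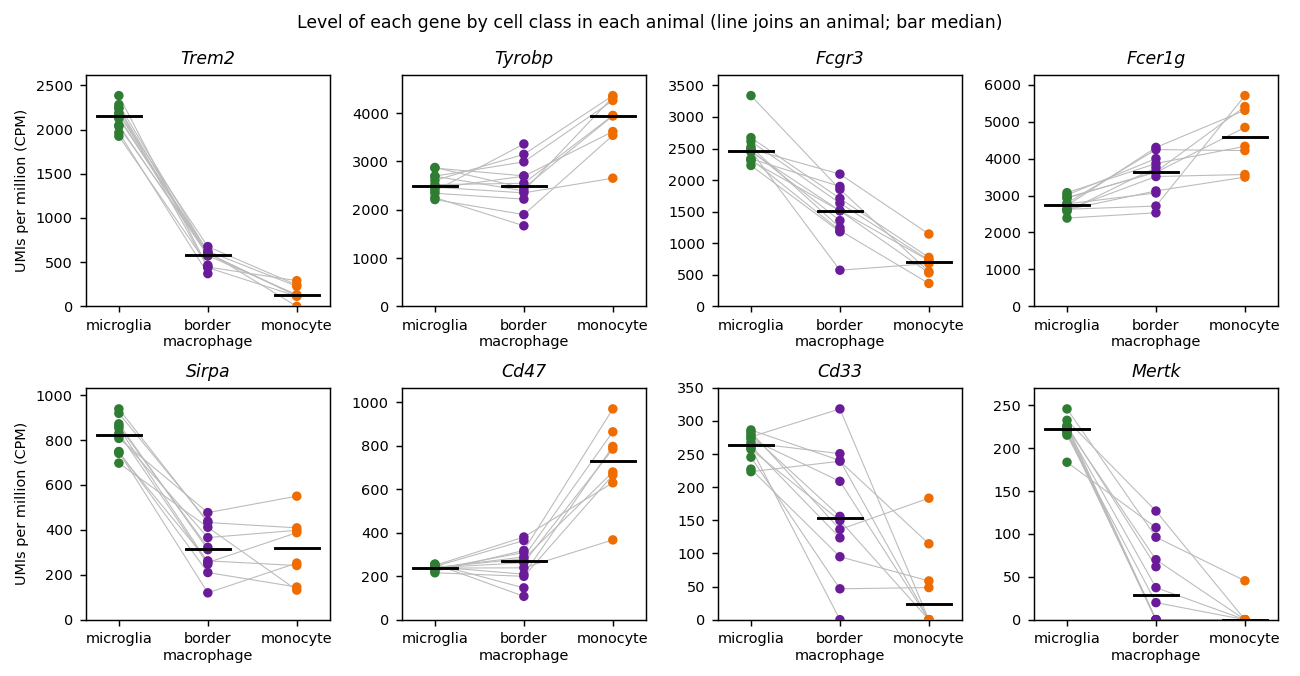
Level of each gene by cell class, in CPM of the animal-by-class sum on linear axes from 0. Points are the sums of 12 animals (8 for monocytes), grey lines join the classes of an animal, and bars are medians. Trem2, Fcgr3 and Sirpa lie highest in microglia in every animal, Cd47 lies highest in monocytes, and the Mertk median is 222.8 CPM in microglia and 0 in monocytes.

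In each of the 3 class comparisons, 4 of the 6 members that passed the filter were called, against 71.4% of the 732 genes tested in border macrophage vs microglia, 85% in monocyte vs microglia and 58.1% in monocyte vs border macrophage. Calls were thus the rule for all genes, and nothing is read from the members' count, which includes Cd47. What set them apart from each other was direction and size. The median difference of all genes was 0.01, -0.15 and -0.24 in these 3 comparisons with TMM, -0.33, -0.47 and -0.23 with median-of-ratios size factors, and -0.18, 0.28 and 0.38 with library totals. Of all called genes, 49.9% were higher in border macrophages than in microglia with TMM and 34.2% with median-of-ratios size factors. In monocyte vs microglia 45.7% were higher with TMM and 55.7% with library totals, and in monocyte vs border macrophage 32.7% and 66.3%. Trem2 and Fcgr3 in the 3 comparisons and Sirpa against microglia kept their direction and passed under all 3 scalings. Cd47 in monocytes also kept its direction under all 3. It passed the filter only through monocytes, so a difference was to be found there and its calls are not counted as support. The other member differences were each lost, gained or turned under some scaling.

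**Figure D4:**
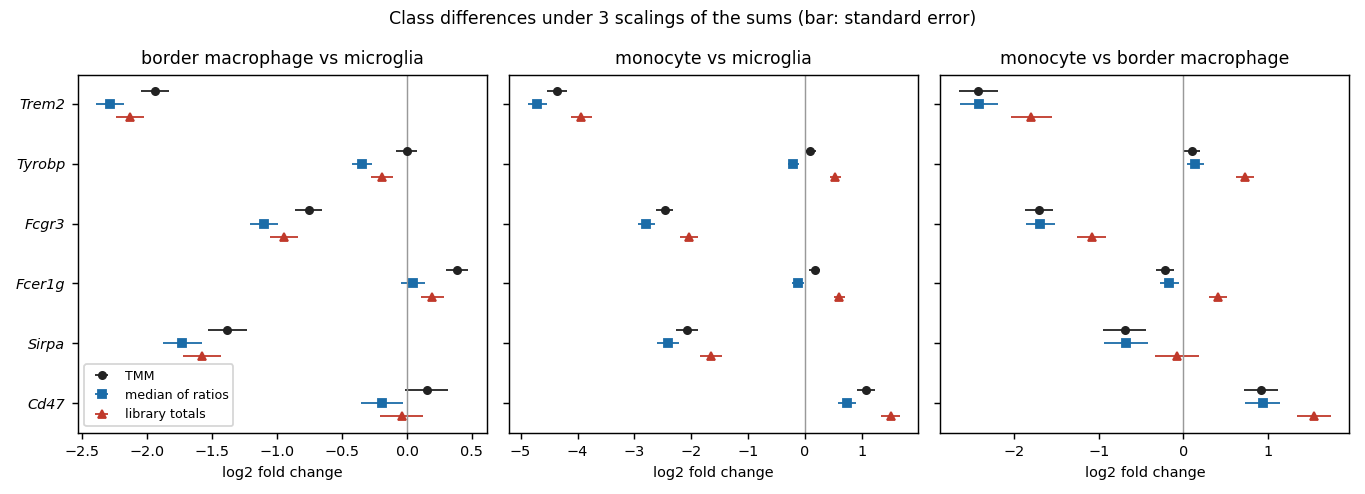
Class differences of the 6 tested genes on the log2 scale under 3 scalings of the same sums, TMM (circles), median of ratios (squares) and library totals (triangles), with bars of 1 standard error. Trem2, Fcgr3 and Sirpa stay left of 0 in each panel. Tyrobp and Fcer1g in monocyte vs microglia lie on either side of 0, from -0.20 to 0.53 for Tyrobp.

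Ratios of UMIs within the same sum do not depend on the scaling, and were added after that dependence and the levels of each gene had been seen, so they are given as a description with no test. Each count had 0.5 added before dividing. Trem2 UMIs per Tyrobp UMI had a median of 0.844 in microglia (0.784 to 0.921), 0.223 in border macrophages (0.158 to 0.322) and 0.051 in monocytes (0.0115 to 0.0787). The lowest monocyte value came from ENZ-INHIB replicate 2, with 0 Trem2 and 43 Tyrobp UMIs, so it rests on the added 0.5. The mean monocyte difference below includes that value. Fcgr3 UMIs per Fcer1g UMI had medians of 0.884, 0.466 and 0.146, and Sirpa UMIs per Cd47 UMI of 3.43, 1.04 and 0.409. All 3 ratios were lower in border macrophages than in microglia in 12 of 12 animals, and lower in monocytes than in either other class in 8 of 8. The mean log2 difference of the Trem2 ratio from microglia was -1.92 ± 0.27 (SD, n = 12) in border macrophages and -4.32 ± 0.89 (SD, n = 8) in monocytes. For Fcgr3 per Fcer1g these were -1.15 ± 0.48 and -2.61 ± 0.41, and for Sirpa per Cd47 -1.51 ± 0.7 and -2.97 ± 0.78.

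**Figure D5:**
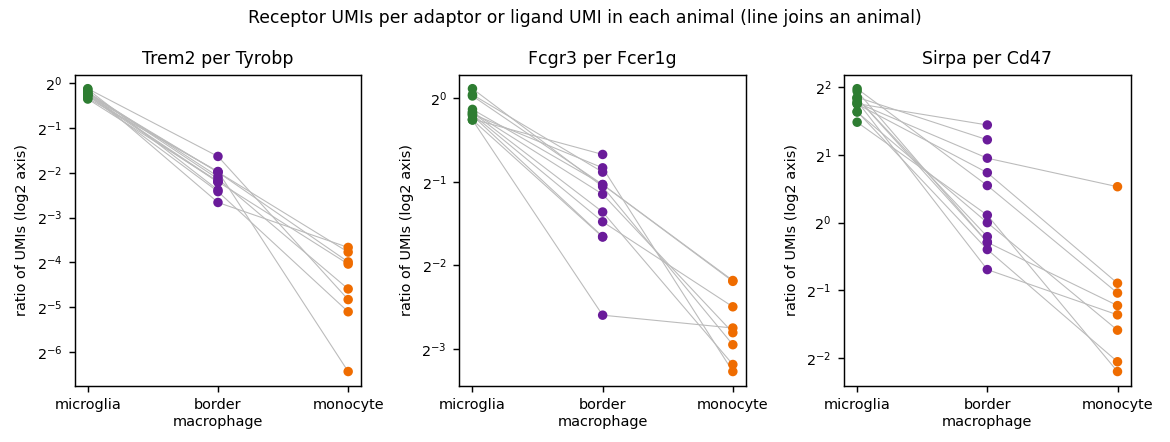
UMIs of a receptor per UMI of its adaptor or ligand in the sums of each animal, by class, on log2 axes, with 0.5 added to each count. Points are animals and grey lines join the classes of an animal. Medians fall from 0.844 to 0.051 for Trem2 per Tyrobp, from 0.884 to 0.146 for Fcgr3 per Fcer1g and from 3.43 to 0.409 for Sirpa per Cd47, each in every animal.

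Trem2 and Fcgr3 were lower in the border macrophages than in the microglia of every library of each preparation. In border macrophages Trem2 averaged 603.3 CPM in ENZ-INHIB, 548.5 in DNC-INHIB, 532.6 in ENZ-NONE and 504.2 in DNC-NONE, each below the lowest microglial sum of 1925.3 CPM. Fcgr3 in border macrophages averaged 1756.2 CPM in ENZ-NONE, 1656.7 in DNC-INHIB, 1361.3 in ENZ-INHIB and 1154.7 in DNC-NONE, with single sums from 572.8 to 2095.4 CPM. The number of cells behind these means was small, from 45 to 55 border macrophages and from 21 to 44 monocytes per group. Differences between preparations within those classes were not tested.

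Over the 6 microglia clusters Trem2 ranged from 2032.9 to 2336.9 CPM and Tyrobp from 2289.3 to 2923.8 CPM, as a description of cells pooled over libraries. Fcgr3 was at 2407.8 to 2614.1 CPM in 5 of them and at 3365.5 CPM in the Fos cluster. That pooled value rests largely on ENZ-NONE replicate 6, which gave 60.6% of the cluster's cells. Its microglia outside the cluster were at 3020.6 CPM. The 3 border macrophage clusters held Trem2 at 375.6 to 608.5 CPM, and the 2 monocyte clusters at 138.0 and 231.5 CPM. An unresolved cluster of 59 cells, whose top genes were of MHC class II with Cd209a, held Trem2 at 45.4 CPM, Fcgr3 at 252.9 and Cd47 at 596.6. In the interferon-responsive cluster, Cd47 was at a median of 388.1 CPM there (235.1 to 620.2) and higher than in the microglia of the same library in 10 of 12 animals. Fcer1g was higher there in 9 of 12 animals (medians of 2976.3 and 2750.5 CPM). Cells of this cluster were grouped on their own transcripts, so no test was made. Trem2 was higher there in 3 of 12 animals and Sirpa in 4.

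The partners of these genes were read from 8 lists. In the 7 preparation comparisons, 0 of the 66 list genes tested were called, while 1 to 12 of them per comparison fell under 0.05 before adjustment, as did 352 to 1037 of all 9882 genes. Crk, an adaptor of engulfment signalling, came nearest, in ENZ-NONE against DNC-INHIB (adjusted p = 0.0527). Between classes many passed, as did most genes. Differences are with TMM alone, and small ones, such as those of Cd300a and Ptpn6, lie within the shifts of the all-gene median between scalings. A list gene that passed the filter only through the class or classes where it is high had to differ, so its values are given without a test and the list counts support nothing. Apoe, a lipoprotein that Trem2 binds, had a median of 82605.2 CPM in border macrophages, 772.7 in microglia and 3769.7 in monocytes, and rose by 6.63 on the log2 scale (SE 0.164, edgeR adjusted p = 3.76e-30) from microglia to border macrophages. It was the only gene of the list of Trem2 ligands and sheddases that passed the filter.

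For Mertk, the related receptor Axl had medians of 300.6 CPM in border macrophages, 5.3 in microglia and 0 in monocytes, so it was highest where Mertk was at a median of 28.6 CPM. The 4 tested genes of this list, Axl, Gas6, Pros1 and Lgals3, each passed the filter through the class or classes where they are high. The fitted log2 differences of border macrophages from microglia were 5.63 for Axl, 2.11 for the ligand Gas6 and -1.32 for the ligand Pros1. Lgals3, a galectin that also binds Mertk, was at 7.45 in monocytes against microglia. By count, 3 of the 4 were higher and 1 was lower in border macrophages than in microglia, and 2 were higher and 2 lower in monocytes.

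Among the other Fc receptors, 3 of 6 listed were tested. The inhibitory receptor Fcgr2b was 0.74 higher in border macrophages than in microglia (edgeR adjusted p = 0.000135). The neonatal receptor Fcgrt, tested only through border macrophages, was at 1.64 and the high-affinity receptor Fcgr1, tested only through microglia, at -0.49, and all 3 were lower in monocytes than in microglia. Of the genes listed as other partners of ITAM adaptors, 0 of 4 tested were higher and 3 lower in border macrophages. Siglech, a Tyrobp-coupled lectin tested only through microglia, led them, with a log2 difference of -3.23 there and of -5.43 in monocytes. In monocytes 2 of those 4 were higher, Clec4a3 by 1.45 and Cd300a by 0.50, and both needed monocytes to pass the filter. Cd300a stood on the list of inhibitory pairs as well, so it is counted in both lists. Of 3 tested genes of ITAM signalling and its brakes, 0 were higher and 2 lower than in microglia in either class. Inpp5d, a lipid phosphatase that restrains Tyrobp signalling, was tested only through microglia. It differed by -1.65 in border macrophages and by -2.77 in monocytes. Lyn fell by 0.88 in border macrophages (edgeR adjusted p = 0.000171). Lyn was also called lower in monocytes, but its median was 447.4 CPM there and 371.2 CPM in microglia, so by CPM it went the other way. Ptpn6, a phosphatase recruited by Sirpa, was not called, at -0.21 in border macrophages and 0.30 in monocytes (adjusted p = 0.336 and 0.15).

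Other phagocytic receptors split in the same comparison. The scavenger receptor Stab1, tested only through border macrophages, was at 1.98 there against microglia. The integrin chains Itgb5 and Itgb2 differed by -1.85 and -1.06 (edgeR adjusted p = 1.42e-15 and 7.06e-07) and Itgam, tested only through microglia, by -1.20, making 1 higher and 3 lower of 6 tested. In monocytes 5 of the 6 were lower and none higher than in microglia. Of the engulfment machinery, 1 of 6 tested was higher and 3 lower in border macrophages, led by the Rac activator Elmo1 at -1.79, which was tested only through microglia. In monocytes, Coro1a and Arpc1b were 1.16 and 1.02 higher (adjusted p = 4.64e-08 and 1.15e-10) and Elmo1 was at -2.91. Of 3 tested genes of the inhibitory pairs, 1 was higher and 2 lower in border macrophages, and 2 higher and 1 lower in monocytes. Cd52, a surface glycoprotein of leukocytes, reached the filter level in 0 microglia, 12 border macrophage and 8 monocyte sums. It was thus tested only through the classes where it is high, and was at 2.23 in border macrophages and 3.28 in monocytes against microglia. The collagen receptor Lair1 differed from microglia by -0.99 and -3.44 in these classes (edgeR adjusted p = 5.04e-07 and 9.53e-15).

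The genes most like each member were those with the highest Pearson correlation of log2 CPM over the 32 animal-by-class sums, among genes that averaged at least 50 CPM. The sums of an animal share a library, and the class differences dominate them, so these values describe the class pattern only. For Trem2 they were Serinc3 (r = 0.958), Csf1r (0.946) and Cmtm6 (0.945), and for Fcgr3 they included Lgmn (0.917) and Rgs10 (0.909). Tyrobp was closest to Tmsb4x (0.819), Psap (0.795) and Ndufa2 (0.789), and Fcer1g to Manf (0.84), Srgn (0.781) and Eef1a1 (0.758). For Sirpa they were Cst3 (0.9), Selplg (0.889) and Evl (0.879), for Cd47 Alox5ap (0.804), Pitpna (0.804) and Gapdh (0.777), for Mertk Glul (0.893), Basp1 (0.883) and Ctss (0.863), and for Cd33 Saraf (0.858), Man2b1 (0.824) and Rab3il1 (0.821).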

How the data were processed

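Libraries were made with the 10X Genomics 3' v2 kit from sorted cells, 1 per animal. The authors ran Cell Ranger 3.0.0 against mm10 (GRCm38) and deposited per-animal matrices of raw UMI counts per gene and cell, taken before their own cell filters. Nothing was normalised in them, and no unassigned column was present (0). Here cells with at least 500 genes, 1000 UMIs and at most 10% mitochondrial UMIs were kept. A marker rule removed 4 doublets (0.0212%), too few to count as doublet removal, so Scrublet scores were an alternative. Cells were clustered with scanpy 1.11.5 and leidenalg 0.10.2 (2000 variable genes, 30 components, resolution 1, leaving out 314 genes including the members) and named from marker lists. The sub-clustering and the naming limits were set after the clusters had been seen. Members and lists were chosen with earlier results of these data known. Sums per library, or per animal and class, were tested with edgeR 4.0.16 (TMM, filterByExpr, quasi-likelihood, Benjamini-Hochberg over all genes). DESeq2 1.42.0 was an alternative, with other scalings, filters, cell sets, batch and libraries left out. Named genes were the members, up to 4 called genes per list by adjusted p, and 3 genes most like each member, of which 1 is not reported here. The script was tested on simulated data. Counting intervals cover counting error only, and a limit for 0 UMIs is 3 counts. Libraries are separate animals. Replicate numbers shared by ENZ-NONE with DNC-INHIB and ENZ-INHIB with DNC-NONE did not pair animals.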

Additional observations from a re-analysis of the deposited data

How the results depend on the processing

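Of 1610 member differences recomputed under the alternatives, 1445 kept their direction and their side of the threshold, 113 changed sign while called in neither fit, 35 passed only in the alternative, 13 passed only as reported and 4 turned. Those 4 were Tyrobp in monocyte vs microglia, at -0.20 with median-of-ratios size factors and -0.20 with DESeq2, Fcer1g in border macrophage vs microglia, at -0.16 without the low-count filter, and Fcer1g in monocyte vs border macrophage, at 0.41 with library totals, an alternative added after seeing the data. The cause was not tested. The number of members called between preparations was 0 under every alternative but batch as a covariate, with 1 in ENZ-NONE against DNC-INHIB, beside 130 of 9882 genes. Between classes it was 7 in monocyte vs border macrophage with sums of at least 10 cells, beside 556 of 1189 genes. In monocyte vs microglia at Leiden resolution 0.5 it was 7, beside 753 of 918 genes. With mixed and unresolved clusters counted by their leading list (added after seeing the data), it was 7 in border macrophage vs microglia and 8 in monocyte vs microglia, beside 835 and 947 of 1222 genes. Mertk or Cd33 could pass the filter in these fits. Calls were common over all genes in them, so nothing is read from the members' counts. Leaving out each library in turn gave 0 calls between preparations and 4 to 6 between classes, beside 343 to 729 genes called in those class fits. Of these fits, 6 of 12 called Tyrobp higher in monocytes than in border macrophages and 12 of 12 called Trem2 and Fcgr3 in each class comparison. With 24 shares of cells with a UMI, 11 moved by 1 SD or more without thinning.

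Counts over all genes moved by more than 1.5 times in some fits. Without the low-count filter the calls were 243 in ENZ-NONE vs DNC-NONE (64 as reported), 137 in ENZ-INHIB vs DNC-INHIB (15), 99 in DNC-NONE vs DNC-INHIB (0), 164 in ENZ-NONE vs ENZ-INHIB (42), 285 in ENZ-NONE vs DNC-INHIB (87), 265 in ENZ-INHIB vs DNC-NONE (10) and 74 for the interaction (17). They were 34 with batch and 24 in microglia alone in ENZ-INHIB vs DNC-INHIB, 1 with DESeq2, 2 with batch and 1 in microglia alone in DNC-NONE vs DNC-INHIB, and 21 with DESeq2, 20 with every barcode and 35 in 6 libraries alone in ENZ-INHIB vs DNC-NONE. Leaving out single libraries gave 2 to 25, 0 to 2, 52 to 104, 0 to 71 and 7 to 19 calls in ENZ-INHIB vs DNC-INHIB, DNC-NONE vs DNC-INHIB, ENZ-NONE vs DNC-INHIB, ENZ-INHIB vs DNC-NONE and the interaction. In class fits, no filter gave 3617, 3591 and 923 calls and the leading lists 835, 947 and 656 in border macrophage vs microglia, monocyte vs microglia and monocyte vs border macrophage, and microglia and border macrophage sums alone 1559, where Fcer1g was at 0.20 and not called.

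With the replicate block, 0 members were called in either pair of groups that share numbers, and all-gene calls were 110 in ENZ-NONE vs DNC-INHIB and 94 in ENZ-INHIB vs DNC-NONE. Same-numbered samples deviated with correlations of -0.081 to 0.155, so the numbers were not taken as pairs. The gate on fixed markers gave 0 border macrophages and 15 monocytes, too few to fit. Depth limits Mertk and Cd33 outside microglia most, where 15 and 51 UMIs in border macrophages and 1 and 13 in monocytes carry the values, and only 8 animals had 5 or more monocytes.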
